A study of Mus musculus with 8 samples.

Results

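The miRNAs of the Hox clusters described here are miR-10a-5p and miR-10b-5p (mmu-miR-10a-5p and mmu-miR-10b-5p in full). They were chosen by name, as the rows of the miRNA table called miR-10a, miR-10b, miR-196a, miR-196b or miR-615, and 2 of 527 rows carried such a name. miR-196a, miR-196b and miR-615 were not analysed here. Small RNA was sequenced from the hippocampus of female Tg6799 mice, which carry mutant human APP with the Swedish, Florida and London mutations and mutant human PS1, both driven by the neuronal Thy1 promoter. Mutant mice (MT) and littermate controls (LM) were examined at 4 and 8 months of age, with 2 mice in each of the 4 groups. The labels give Tg6799 as the strain of both MT and LM mice.

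MT and LM below mean mice so labelled, and the mice of a group carry the letters a and b, which only name them. The column names of the deposited table give no genotype, and the groups were taken from the labelled columns of the study's supplementary miRNA table, which hold the same values in 527 of 527 rows. If the numbers in the deposited column names were instead read in the order of the sample entries, LM and MT would change places at each age, and every genotype difference given here would change sign. The transgenes cannot be measured in miRNA data. miR-155-5p, an inducible miRNA of activated microglia and other immune cells, was listed at 12.4 and 5.25 in the LM mice and at 1 and 0 in the MT mice at 4 months. At 8 months it was 3 and 15.5 in LM mice and 4.17 and 1 in MT mice. miR-142-5p, another miRNA of blood-derived cells and microglia, did not follow it, at 127 and 122 in LM and 100.0 and 147 in MT mice at 4 months. In array values that the study lists under the same mouse labels, Thy1, whose promoter cassette drives the transgenes, and the astrocyte gene Gfap were higher in LM 4 months a, LM 4 months b and LM 8 months b than in the other 5 mice. Neither the labels nor their exchange match that pattern in full, since LM 8 months a stood with the MT mice. If high Thy1 marked the transgene, exchanged labels would fit every mouse but LM 8 months a, and the given labels only that mouse. Whether it does was not tested, and the array values were not otherwise analysed here. Each direction between genotypes given here therefore rests on labels that are in doubt and that the miRNA values could not check.

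The miR-10 genes sit among the Hox genes, which set position along the body axis, and they are best known for high levels in the spinal cord, hindbrain and trunk rather than in the forebrain. Like other miRNAs, the mature strand is loaded into an Argonaute protein and pairs with target mRNAs mainly through its seed, bases 2 to 8, lowering their translation and stability. miR-10b is also expressed in connective tissue and vessel cells outside the nervous system.

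The mature sequences are shown because the pair differs so little that the counting of reads may bear on the values below. They were taken from RefSeq (GRCm38.p6), run 5′ to 3′, and carry the seed in capitals. The miR-99 and miR-100 sequences are relatives from the same ancient family.
miR-10a-5p: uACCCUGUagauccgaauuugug
miR-10b-5p: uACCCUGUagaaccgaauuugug
miR-99a-5p: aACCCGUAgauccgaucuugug
miR-99b-5p: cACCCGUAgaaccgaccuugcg
miR-100-5p: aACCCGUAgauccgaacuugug

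miR-10a-5p and miR-10b-5p were identical at 22 of 23 bases. The only difference was U12A, counted from the 5′ end with the base of miR-10a-5p first, which lies outside the seed. Of 1679 mature mouse sequences in the RefSeq table, 2 had this seed, the pair itself. miR-99a-5p, miR-99b-5p and miR-100-5p shared another seed and were 3 to 6 edits away from the pair. The authors allowed 1 mismatch when aligning reads, so a read of either miR-10 was also within the limit for the other. How such reads were assigned is not stated, and the split between the pair could not be checked here. Among the 414 rows of the table with a RefSeq sequence, 6.76% had another row within 1 edit.

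The mature miR-10a-5p lies at chr11:96317186-96317208 on the plus strand of GRCm38. Its gene Mir10a, at chr11:96317165-96317274, overlaps no other gene annotated in GENCODE M21 and ends 993 bases before Hoxb4 begins on the same strand. The mature miR-10b-5p lies at chr2:74726074-74726096, also on the plus strand. Mir10b, at chr2:74726070-74726137, is in annotated introns of Hoxd4 and Hoxd3 on the same strand. Both genes thus stand beside a Hox gene of paralog group 4 in separate clusters.

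Both miRNAs were detected in all 8 mice, and miR-10a-5p was the more abundant in each of them. Values are quantile-normalized read counts, and a rank of 1 is the highest of the 527 miRNAs in a mouse. miR-10a-5p had a mean of 40.8 ± 24.4 (SD, n = 8) and ranked between 141 and 231. miR-10b-5p had a mean of 7.22 ± 5.45 (SD, n = 8) and ranked between 218 and 314. Their relatives stood far higher in the same libraries. miR-99a-5p ranked between 1 and 6, miR-100-5p between 20 and 35, and miR-99b-5p between 33 and 42. The miR-125 5p arms, also on the list of relatives, were not analysed here. The table holds normalized values and not reads, so no counting error is given for these low values.

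miR-10a-5p was 47.8 and 48.2 in LM mice and 24.8 and 13.9 in MT mice at 4 months. The LM mice were nearly equal, both MT mice lay below them, and the groups did not overlap. Of all 527 miRNAs, 16.1% were lower in both MT mice than in either LM mouse at this age. At 8 months miR-10a-5p was 19.1 and 91.8 in LM mice and 38.8 and 41.8 in MT mice. Here the MT mice lay between the LM mice, which were 4.81-fold apart and held the highest value of the study and the next to lowest. In order over the 8 mice, the values ran from MT at 4 months (13.9) through LM at 8 months (19.1) and MT at 4 months (24.8) to both MT mice at 8 months, both LM mice at 4 months and LM at 8 months (91.8).

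miR-10b-5p was 2.92 and 4.08 in LM mice and 18.4 and 6.29 in MT mice at 4 months. The groups again did not overlap, this time with MT above LM, as was so for 12% of all miRNAs at this age. At 8 months miR-10b-5p was 3 and 6.58 in LM mice and 4.17 and 12.3 in MT mice, and the groups overlapped. At this age 12.5% of all miRNAs were higher and 12.1% lower in both MT mice than in either LM mouse, and neither miR-10 was among them. The highest values of the study came from MT 4 months a and MT 8 months b, and the 2 mice of each MT group differed by 2.93-fold and 2.95-fold.

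**Figure D1:**
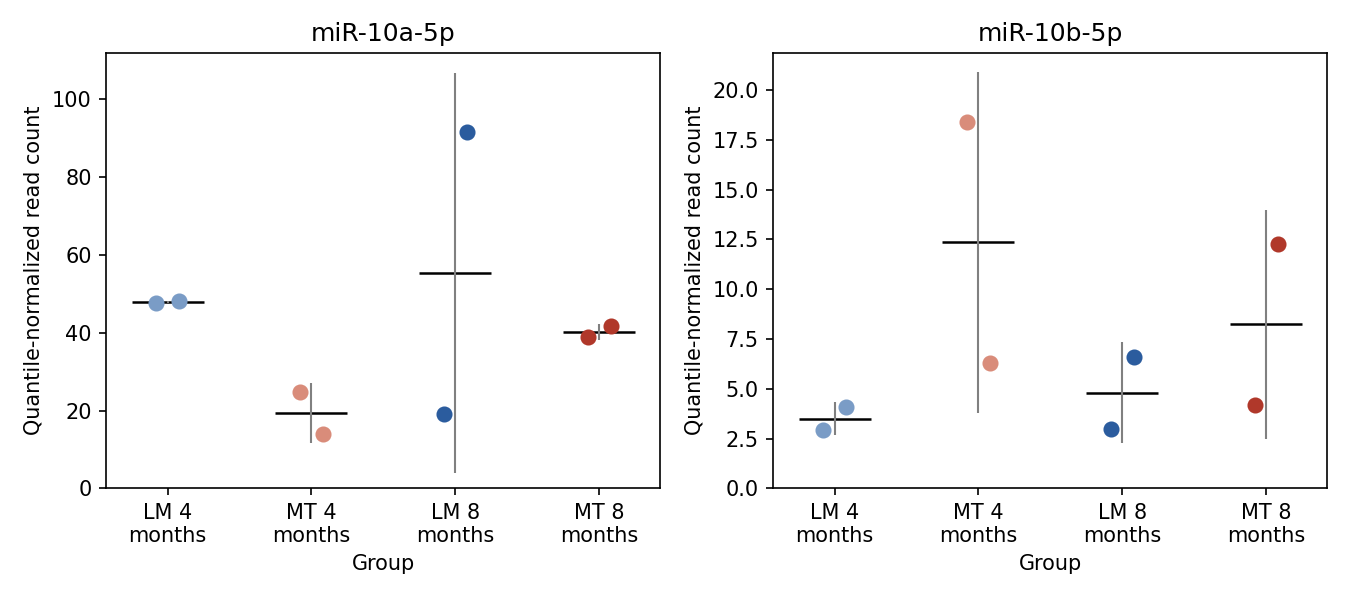
Quantile-normalized read counts (vertical axis, linear, from 0) of miR-10a-5p and miR-10b-5p by group, with 1 point per mouse, the mean as a horizontal line and the SD as a vertical line (n = 2). At 4 months MT mice lie below LM mice for miR-10a-5p (24.8 and 13.9 against 47.8 and 48.2) and above them for miR-10b-5p, and at 8 months the groups overlap for both.

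Neither miRNA passed the test in any comparison. The test was limma on log2(value + 1) over all 527 miRNAs, in 1 model of the 4 groups, with a call at a Benjamini-Hochberg adjusted p of 0.1 or less. At 4 months the MT minus LM difference of miR-10a-5p was -1.32 ± 0.72 (SE) on the log2 scale, with a 95% interval from -3.07 to 0.44 and a limma adjusted p of 0.659. For miR-10b-5p it was 1.42 ± 0.68 (SE), with an interval from -0.24 to 3.07 and the same limma adjusted p of 0.659. The unadjusted p of miR-10b-5p in this limma fit was 0.0818, and 13.9% of all miRNAs had an unadjusted p of 0.1 or less. limma called no miRNA at 4 months (0%), while 44 of 527 (8.35%) had an unadjusted p under 0.05.

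At 8 months the difference between MT and LM was -0.06 ± 0.72 (SE) on the log2 scale for miR-10a-5p, with an interval from -1.82 to 1.69. For miR-10b-5p it was 0.59 ± 0.68 (SE), with an interval from -1.07 to 2.25. The adjusted p from limma was 1 for miR-10a-5p and 0.949 for miR-10b-5p. limma called no miRNA at this age either (0%), with 23 of 527 (4.36%) at an unadjusted p under 0.05 and 9.11% at 0.1 or less. These intervals include differences of more than 1 log2 unit in either direction, so the comparison at 8 months does not show that the groups were alike.

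Averaged over the 2 ages, the MT minus LM difference was -0.69 ± 0.51 (SE) on the log2 scale for miR-10a-5p and 1.00 ± 0.48 (SE) for miR-10b-5p, and the limma adjusted p was 0.692 for each. In this comparison 1 of 527 miRNAs (0.19%) was called, while 6.45% had an unadjusted p under 0.05. miR-10b-5p had an unadjusted limma p of 0.0814, and 12.7% of all miRNAs had an unadjusted p of 0.1 or less. Exact two-sided permutation of the genotype labels within each age, over 36 arrangements, gave p = 0.389 for miR-10a-5p and p = 0.167 for miR-10b-5p, where the smallest possible p was 0.0556. The change in the genotype difference from 4 to 8 months, the interaction, was 1.25 ± 1.01 (SE) log2 units for miR-10a-5p and -0.83 ± 0.96 (SE) for miR-10b-5p. Its limma adjusted p was 0.817 and 0.836. limma called no miRNA for the interaction (0%), with 31 of 527 (5.88%) at an unadjusted p under 0.05 and 9.49% at 0.1 or less.

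Age was compared within each genotype in the same fit, so these comparisons share mice with those above. From 4 to 8 months miR-10a-5p differed by -0.18 ± 0.72 (SE) log2 units in LM mice and by 1.07 ± 0.72 (SE) in MT mice. The MT mice at 8 months both lay above the MT mice at 4 months, as was so for 13.7% of all miRNAs, while 11.8% lay below in both. miR-10b-5p differed by 0.30 ± 0.68 (SE) in LM mice and by -0.52 ± 0.68 (SE) in MT mice, with overlapping groups in each case. The limma adjusted p was 1 and 0.775 for miR-10a-5p and 0.980 and 0.879 for miR-10b-5p. limma called no miRNA for age in either genotype (0%). At an unadjusted p under 0.05 there were 27 of 527 (5.12%) in LM mice and 30 of 527 (5.69%) in MT mice, and at 0.1 or less 8.92% and 10.6%.

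**Figure D2:**
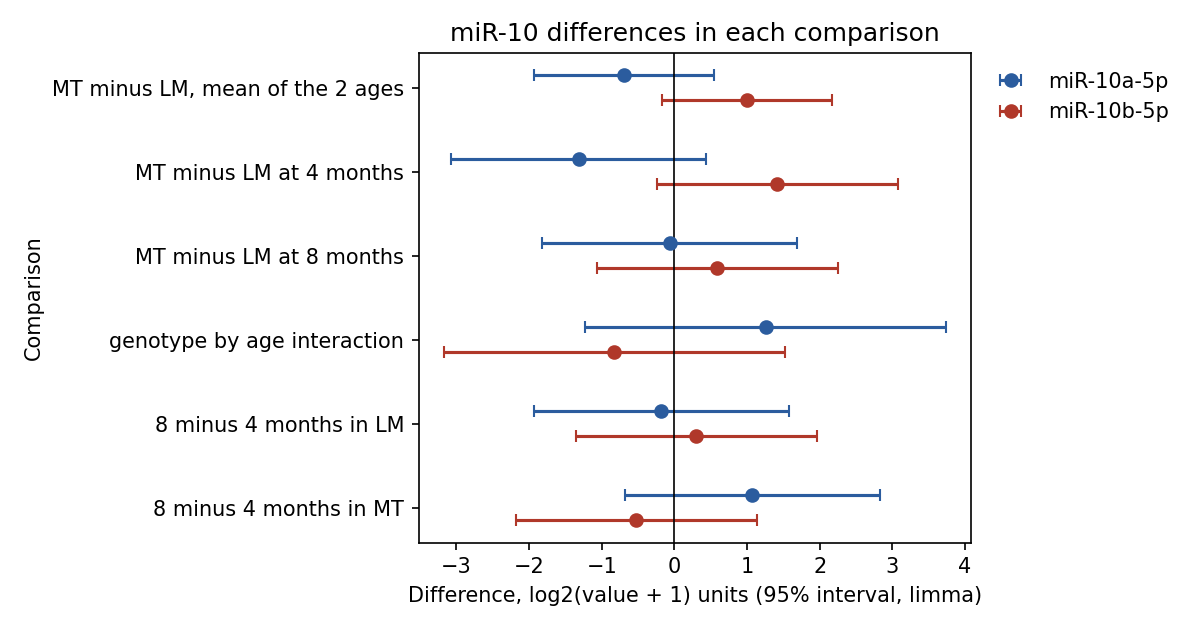
Differences of miR-10a-5p and miR-10b-5p in the 6 comparisons (horizontal axis, log2(value + 1) units), with points for the limma estimate and bars for its 95% interval. Every interval includes 0, and the largest estimates are those between MT and LM at 4 months, -1.32 for miR-10a-5p and 1.42 for miR-10b-5p.

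The pair varied more between mice of a group than most miRNAs did. The residual SD of the fit was 0.83 log2 units for miR-10a-5p and 0.78 for miR-10b-5p, against a median of 0.42 over the 288 miRNAs with a mean value of at least 5. Of those 288, 86.8% had a lower SD than miR-10a-5p and 84.4% a lower SD than miR-10b-5p. They were not matched to the pair in abundance. miR-10b-5p lay near the filter with a mean of 7.22, and its LM group means, 3.5 at 4 months and 4.79 at 8 months, lay below it. Much of the spread of miR-10a-5p came from the LM mice at 8 months. Without LM 8 months a its mean MT minus LM difference was -1.24 (limma, unadjusted p = 0.0071, adjusted p = 0.163), and without LM 8 months b it was -0.14 (adjusted p = 0.848). Over the alternatives run, the limma adjusted p of this difference ran from 0.163 to 0.848.

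The 2 miRNAs did not move together over the mice. The ratio of miR-10a-5p to miR-10b-5p was 16.4 and 11.8 in LM mice and 1.35 and 2.21 in MT mice at 4 months. At 8 months it was 6.36 and 13.9 in LM mice and 9.32 and 3.40 in MT mice. Over both ages the median ratio was 12.9 in the 4 LM mice and 2.80 in the 4 MT mice, and the ranges overlapped, with the lowest LM ratio below the highest MT ratio. The sum of both normalized values was 50.7 and 52.2 in LM and 43.2 and 20.2 in MT mice at 4 months, and 22.1 and 98.3 in LM and 43.0 and 54.0 in MT mice at 8 months. The ratio was formed after the values were seen and was not tested.

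**Figure D3:**
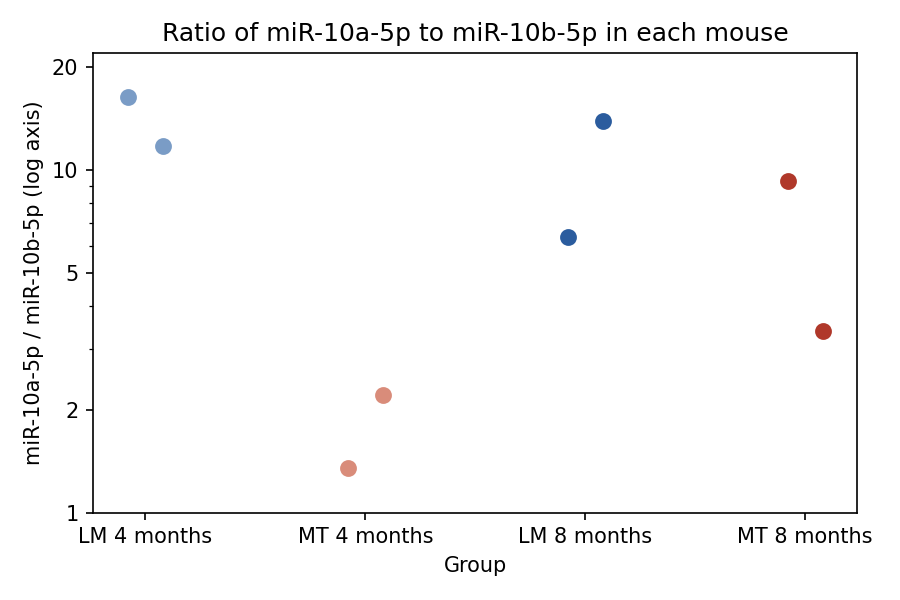
Ratio of miR-10a-5p to miR-10b-5p in each mouse (vertical axis, log scale) by group, 1 point per mouse. The ratio is 1.35 and 2.21 in MT mice at 4 months against 16.4 and 11.8 in LM mice, and the genotypes overlap at 8 months.

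The profile of miR-10b-5p over the mice was closest to that of miRNAs of connective tissue, vessel wall and epithelium. Closeness was the mean absolute distance between log2(value + 1) profiles, each centred on its mean over the 8 mice, among 287 other miRNAs with a mean value of at least 5. The closest was miR-199a-5p, known from fibroblasts and other mesenchymal cells, at a distance of 0.23 log2 units. Next came miR-205-5p, known from epithelia, at 0.27, and miR-143-5p, from the smooth muscle and pericyte locus of miR-143 and miR-145, at 0.32. The median distance over all 287 was 0.77. miR-10a-5p itself was 1.00 log2 units away, farther than that median.

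The values of these miRNAs peaked in the same mice as miR-10b-5p. This followed from their choice as the closest profiles and is no separate support. miR-199a-5p was 108 in MT 4 months a and 97.5 in MT 8 months b, and between 23.2 and 35.9 in the other 6 mice. miR-143-5p was 583 and 298 in those mice and between 130.5 and 150.5 in the others. Of the list for fibroblasts and meninges, 2 of 5 miRNAs were measured, miR-199a-5p and miR-214-5p. The 3p arms on this list were not measured. The sum was carried by miR-199a-5p. miR-214-5p did not follow it, being highest in LM 4 months b (9.58) against 3 in MT 4 months a and 6.58 in MT 8 months b. Its values were low in every mouse, so little can be read from them. The summed value of the 2 measured miRNAs was 24.2 to 34.4 in LM and 33.9 to 111 in MT mice at 4 months. At 8 months it was 30.3 to 38.8 in LM and 37.0 to 104 in MT mice. Of the list for endothelium and vessel wall, 3 of 5 were measured. At 4 months their sums were 8197 to 9637 in LM and 6740 to 15067 in MT mice. At 8 months they were 8691 to 8704 in LM and 9639 to 13087 in MT mice. These sums were led by miR-145a-5p. miR-126-5p was highest in MT 8 months b (4109.5), but lower in MT 4 months a (2508) than in LM 4 months a (3232). No measured miRNA of either list was at 0 in any mouse. Their part in the miR-10b-5p values was not tested. In bulk hippocampus, fewer cells of a type and less RNA per cell cannot be told apart. Leaving out MT 4 months a and MT 8 months b was a choice made after the values were seen. These mice held the highest miR-10b-5p values, so a smaller difference was fixed by that choice. Without them the mean MT minus LM difference of miR-10b-5p was 0.31 log2 units in place of 1.00, and at 8 months -0.092.

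**Figure D4:**
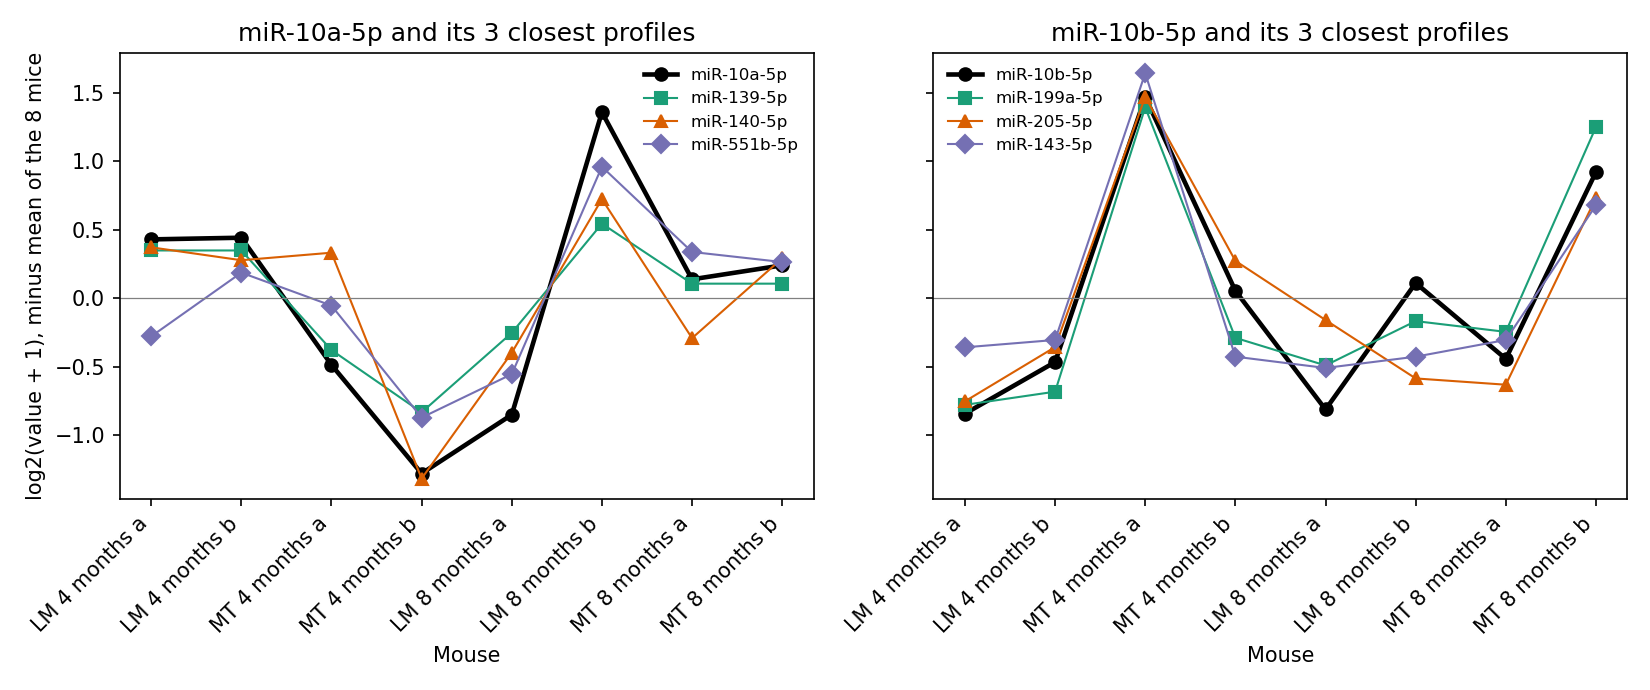
log2(value + 1) minus its mean over the 8 mice (vertical axis) in each mouse (horizontal axis) for miR-10a-5p, miR-10b-5p and the 3 miRNAs closest to each. miR-10b-5p and its neighbours peak in MT 4 months a and MT 8 months b, while miR-10a-5p and its neighbours are highest in LM 8 months b.

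miR-10a-5p had other neighbours. The closest was miR-139-5p, an intronic miRNA of the phosphodiesterase gene Pde2a, at 0.29 log2 units, followed by miR-140-5p, best known from cartilage, at 0.33 and miR-551b-5p at 0.34, where the median distance over 287 miRNAs was 0.72. miR-139-5p was 8709 in both LM mice and 5262 and 3840 in the MT mice at 4 months, and 5741 and 9974 in the LM mice and 7363 in both MT mice at 8 months. It was therefore highest in LM 8 months b and lowest in MT 4 months b, as miR-10a-5p was, but it was chosen for its close profile.

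Markers of other cells also differed between the groups. For choroid plexus and ciliated cells, 6 of 9 listed miRNAs were measured. Their sums, led by miR-204-5p, were 11619 to 12558 in LM and 26389 to 31549 in MT mice at 4 months and 13571 to 17140 in LM and 38569 to 39594 in MT mice at 8 months, so that the genotypes did not overlap. miR-34b-5p followed miR-204-5p, at 298 and 597 in LM and 837 in both MT mice at 4 months. At 8 months it was 1172 and 597 in LM and 2508 and 2596 in MT mice. Other members did not all follow miR-204-5p. At 4 months miR-449a-5p was 12.4 and 12.3 in LM and 4.08 and 0 in MT mice, and miR-211-5p was 156 and 215 in LM and 166 and 95.2 in MT mice. The sums of red blood cell miRNAs, of which 3 of 4 were measured, also separated the genotypes at each age. They were 216 and 1320 in LM and 1972 and 2206 in MT mice at 4 months. At 8 months they were 690 and 745 in LM and 1191 and 1729 in MT mice. miR-451a led them in every mouse but LM 4 months a, and the other measured members did not follow it at either age. At 4 months miR-486-5p was 134 and 164 in LM and 113 and 43.9 in MT mice. miR-144-5p was 19.5 and 48.2 in LM and 50.9 and 20.25 in MT mice at that age. Of all 527 miRNAs, 12% at 4 months and 12.5% at 8 months were higher in both MT mice than in either LM mouse. The part of either list in the miR-10 values was not tested. Of the neuronal list 1 of 6 arms was measured, miR-9-5p, at 17913 to 32910 in all mice, and 5p arms of other neuronal miRNAs in the table were not on the list. Of the other lists, 3 of 5 microglial and leukocyte miRNAs to between 82.5 and 264, and 2 of 4 oligodendrocyte miRNAs to between 279 and 448.

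The relatives with the other seed were steadier, but they were also far more abundant. Mean values were 27265 for miR-99a-5p, 2450 for miR-99b-5p and 4318 for miR-100-5p, against 40.8 for miR-10a-5p and 7.22 for miR-10b-5p. Quantile normalization gives mice shared values at the same rank, and miR-99a-5p was 29023 in both MT mice at 8 months. The parts of abundance and of normalization in the steadiness of these relatives were not tested. The MT minus LM difference averaged over ages was 0.05 ± 0.23 (SE) log2 units for miR-99a-5p, -0.02 ± 0.19 (SE) for miR-99b-5p and 0.09 ± 0.31 (SE) for miR-100-5p. In any comparison 0 of these 3 passed the test, where 0.19% of all miRNAs passed averaged over ages and 0% elsewhere. The difference between either miR-10 and its relatives was not tested.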

How the data were processed

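Small RNA libraries from hippocampal total RNA were sequenced on an Ion PGM. According to the study's methods, the authors trimmed adapters, kept reads of miRNA length, aligned them with bowtie2 (Bowtie2 version 2 in the submitters' processing notes) to mouse miRBase with 1 mismatch allowed, and quantile normalized the counts. The deposited values are this normalized signal, on a linear scale and not whole counts. The 8 columns share their highest value (32910) and have totals from 447451 to 447478, so the table keeps the rank of a miRNA in each mouse but not the depth. Read totals that the study lists elsewhere were not used here, since they do not give the reads behind a normalized value. Of the values, 90.8% were multiples of 1/12, within 0.01 of a twelfth. The table has 422 rows with 5p names, 14 with 3p names and 91 without an arm.

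The columns of the authors' own tests in the supplement were not used. Each deposited column was given the group of the labelled supplementary column that is equal to it in 527 of 527 rows, within a tolerance of 0.0001; no other column was equal in more than 117. Nothing says whether mice of a group shared a litter, and p-values measure the spread between these mice.

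limma 3.58.1 (R 4.3.3) was fitted to log2(value + 1) of all 527 miRNAs with 4 groups of 2 and a constant prior, and p-values were adjusted by Benjamini-Hochberg. The code of the fit was checked on simulated data in which every miRNA had the same spread. That check does not bear on miRNAs as low and variable as this pair. All rows entered, and both members also passed the alternative filter of a mean of at least 5. Alternatives were other pseudocounts, that filter, a trended prior, ranks, unadjusted p-values, fits of only the groups compared, and leaving out each mouse. Sequences came from RefSeq tables and positions from GENCODE M21. edlib 1.3.9.post1 gave edit distances, and Python 3.11.15 was used. The named miRNAs are the members, the 3 closest profiles of each, the miR-99, miR-100 and miR-125 5p arms, and marker miRNAs where a result turned on them. The members and lists were chosen with earlier results of these data known.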

Additional observations from a re-analysis of the deposited data

How the results depend on the processing

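No paired analysis was possible because the deposited columns carry no replicate numbers that the groups share. The miR-10 pair kept its direction and stayed without a call in 181 of the values recomputed for it, reversed in 7 and passed in 2. These values are not independent, since leaving out a mouse does not change an estimate between the other groups. At an unadjusted p of 0.1 or less, miR-10b-5p passed averaged over ages (1.00) and at 4 months (1.42), as did 67 and 73 miRNAs, with 48 at 8 months, 50 for the interaction, 47 for age in LM and 56 in MT mice. Leaving out single mice moved the difference of miR-10b-5p from 0.71 (without MT 4 months a) to 2.12 log2 units (without MT 4 months b) at 4 months and from 0.65 to 1.36 averaged over ages, and that of miR-10a-5p from -1.72 to -0.92 and from -1.24 to -0.14. The interaction ran from 0.15 (without LM 8 months a) to 2.36 (without LM 8 months b) for miR-10a-5p and from -1.53 (without MT 4 months b) to -0.12 (without MT 4 months a) for miR-10b-5p. The same step moved the 8-month difference from -1.17 to 1.04 log2 units for miR-10a-5p (1.04 without LM 8 months b) and from -0.092 to 1.27 for miR-10b-5p (-0.092 without MT 8 months b). It moved the age difference in LM mice from -1.29 to 0.92 for miR-10a-5p (0.92 without LM 8 months a) and from -0.16 to 0.77 for miR-10b-5p (-0.16 without LM 8 months b). In MT mice that of miR-10b-5p ran from -1.23 to 0.18, being 0.18 without MT 4 months a and 0.16 without MT 8 months a. The cause was not tested. No alternative brought either miR-10 to an adjusted p of 0.1. Counts of called miRNAs, 1 averaged over ages and 0 elsewhere, were less stable. Leaving out single mice gave 0 to 22 averaged over ages, 0 to 25 at 4 months, 2 to 20 at 8 months, 0 to 21 for the interaction, 0 to 20 for age in LM and 0 to 15 in MT mice. A group left with 1 mouse was taken to vary like the others. Without both MT mice highest in the fibroblast and meninges list, chosen after seeing the data, the counts in that order were 41, 31, 23, 41, 9 and 39, and the 8-month difference of miR-10b-5p was -0.092. A pseudocount of 0.5 gave 0 averaged over ages, 5 at 8 months, 1 for the interaction and 5 for age in LM mice, and a pseudocount of 4 gave 4 averaged over ages, 5 at 8 months and 1 for age in LM mice. Keeping a mean of at least 5 gave 4 averaged over ages, 7 at 8 months and 1 each for the interaction and for age in LM and in MT mice. A trended prior gave 3 averaged over ages. Ranks gave 5, 2, 6, 7, 4 and 4 in the order above. Fitting only the 2 groups compared gave 10 at 8 months, 9 for age in LM and 8 in MT mice. The reads behind the low values of miR-10b-5p, which limit their precision, are not given by the normalized table.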

Other observations

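The mice with the highest miR-10a-5p were also those with the highest miR-146a-5p and miR-155-5p, both known from activated microglia and other immune cells. In LM 8 months b, LM 4 months b and LM 4 months a, miR-10a-5p was 91.8, 48.2 and 47.8, miR-146a-5p was 43.9, 23.9 and 28.5, and miR-155-5p was 15.5, 5.25 and 12.4. In the other 5 mice miR-10a-5p was at most 41.8, miR-146a-5p at most 18.04 and miR-155-5p at most 4.17. The third measured miRNA of the microglia and leukocyte list, miR-142-5p, did not share the pattern. It was highest in LM 8 months b (205) but higher in MT 4 months b (147) than in LM 4 months a (127) and b (122). LM 8 months b, LM 4 months b and LM 4 months a also had higher array values of Thy1 and Gfap than the other 5 mice. Those array values leave the labels of both genotypes in doubt. This was noticed after the values were seen and was not tested. How many of all miRNAs were highest in the same mice was not counted, so the match has no background to be set against.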
